A study of Mus musculus with 7 samples.

Results

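The transcripts of 40 lysosomal hydrolases, membrane proteins and associated factors were followed here in mouse liver. They were taken by symbol from the 37620 gene identifiers of the count table; all 40 had a row, and all 40 passed the filter on low counts that left 15249 genes. They comprised 9 proteases, 11 glycosidases, 4 sulfatases, 5 lipid hydrolases or their cofactors, 9 membrane proteins, the regulator Tfeb and the growth factor precursor Grn. Counts per member and library ran from 76 to 13506.

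The lysosome is the acidic compartment in which cells digest proteins, glycans, lipids and nucleic acids that arrive by endocytosis and autophagy. Its soluble enzymes are made in the endoplasmic reticulum, most of them are tagged with mannose 6-phosphate for delivery, and they work behind a membrane rich in heavily glycosylated proteins such as LAMP1 and LAMP2. In the liver, hepatocytes use lysosomes to release free cholesterol from lipoproteins and lipid droplets, and resident macrophages (Kupffer cells) use them to clear material from blood. The transcription factor TFEB raises the expression of many lysosomal genes through an E-box-like element, known as the CLEAR element, near their start sites.

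The livers came from C57BL/6 mice that had all been given a Western diet for 30 weeks. Of the 7 libraries, 4 belonged to the group called H-TBA, in which total bile acids were high, and 3 to the group called L-TBA, in which they were low. The difference in bile acids was spontaneous according to the series title, with no allele or agent named, and all groups shared the diet. The sources used here give neither sex nor age, nor is it stated whether each library was a different mouse; if not, p-values reflect the variation among libraries, which may be technical. The question was which liver transcripts differ with bile acid load in fatty liver disease. RNA was from whole liver, so fewer cells of a type and less RNA per cell cannot be told apart.

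Total counts ran from 9996990 to 12152613 per library. The hepatocyte gene Alb, for albumin, stood at 41021 and 37121 CPM (counts scaled to a common library size) in L-TBA and H-TBA, as the most abundant of the hepatocyte markers. On the first principal component, with 64.7% of the variance, H-TBA 1 lay nearer to L-TBA than the other H-TBA libraries did, at -10.7 against -43.5 to -34.6, with L-TBA at 36.8 to 45.2. Results are therefore also given without it where they change. L-TBA 3 had the highest summed levels of macrophage and other leukocyte markers, given with those markers. With edgeR's quasi-likelihood test and a threshold of 0.05 on the adjusted p, 13.1% of the 15249 genes were higher in H-TBA and 10.7% were lower, 23.9% in all.

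Promoter windows for 37 of the 40 genes were taken from RefSeq (GRCm38.p6), each from 250 bases before to 50 after an annotated start, and searched for CACGTG, the E-box at the heart of the CLEAR element, for its extension TCACGTGA and for the palindromic form of the CLEAR element, which is marked in the Cln3 sequence. All 3 read the same on both strands, and each longer motif contains the shorter. An E-box was in a window of 12 of the 37 genes (32.4%), against 8.09% of the 27025 genes with a window. TCACGTGA was in 5 of the 37 (13.5%, against 1.12%) and the palindrome in 1 (2.7%, against 0.37%). Most members thus had no E-box in these windows. Windows with the motif are shown because they were more frequent here than among all genes; capitals mark the motif, and a match is a description of letters, not a site shown to be bound, and not a cause.

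Lamp1 has 4 E-boxes within a stretch of 73 bases of its window (chr8:13159088-13159160, plus strand), more than any other of the 37 genes with a window.
Lamp1: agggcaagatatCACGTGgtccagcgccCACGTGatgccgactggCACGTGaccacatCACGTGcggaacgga
Single windows follow for genes with the longer motifs and for Gaa and Arsa, the members with an E-box that passed the test in either direction beside Ctsa.
Cln3: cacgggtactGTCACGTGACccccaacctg
Ctsa: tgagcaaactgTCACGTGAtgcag
Ctsd: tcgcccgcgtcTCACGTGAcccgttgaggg
Gla, distal: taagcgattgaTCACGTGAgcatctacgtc
Gla, proximal: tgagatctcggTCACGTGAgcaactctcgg
Mcoln1: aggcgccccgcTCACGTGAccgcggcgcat
Gaa: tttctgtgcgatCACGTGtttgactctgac
Arsa: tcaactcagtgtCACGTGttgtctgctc
Lipa and Ctsz were picked as the members with the lowest log2 fold changes, and the next lowest, Arsa, has an E-box. Of the 37 genes, 25 have none. For comparison, the 60 bases before the start of Lipa (chr19:34527475-34527534, minus strand) and Ctsz (chr2:174439040-174439099, minus strand) hold none of these motifs, and neither do their whole windows.
Lipa: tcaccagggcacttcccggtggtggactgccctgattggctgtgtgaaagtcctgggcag
Ctsz: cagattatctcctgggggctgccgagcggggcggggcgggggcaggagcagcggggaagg

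Levels differed widely between members. Per kilobase of annotated exon, the saposin precursor Psap stood highest in L-TBA at 402 ± 27.8 CPM per kb (SD, n = 3), followed by Lamp1 at 366 ± 3.98, the aspartic protease gene Ctsd at 258 ± 8.88 and Ctsz at 253 ± 7.22, of which the last pair did not differ beyond their spread. Tfeb was lowest at 2.001 ± 0.31 CPM per kb, with the glycosaminoglycan enzymes Idua and Sgsh at 2.75 ± 0.26 and 2.86 ± 0.63 and the alpha-galactosidase gene Gla at 2.87 ± 0.65, and these last 3 lay within each other's spread. The highest and lowest members differed 201-fold per length. In H-TBA the level of Ctsz was 170 ± 8.04 CPM per kb (n = 4), further below Ctsd, which stood at 241 ± 15.4. The lengths count every annotated exon of a gene, so genes with long rare isoforms, such as Lamp2 with 9552 bases, are understated on this scale.

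**Figure D1:**
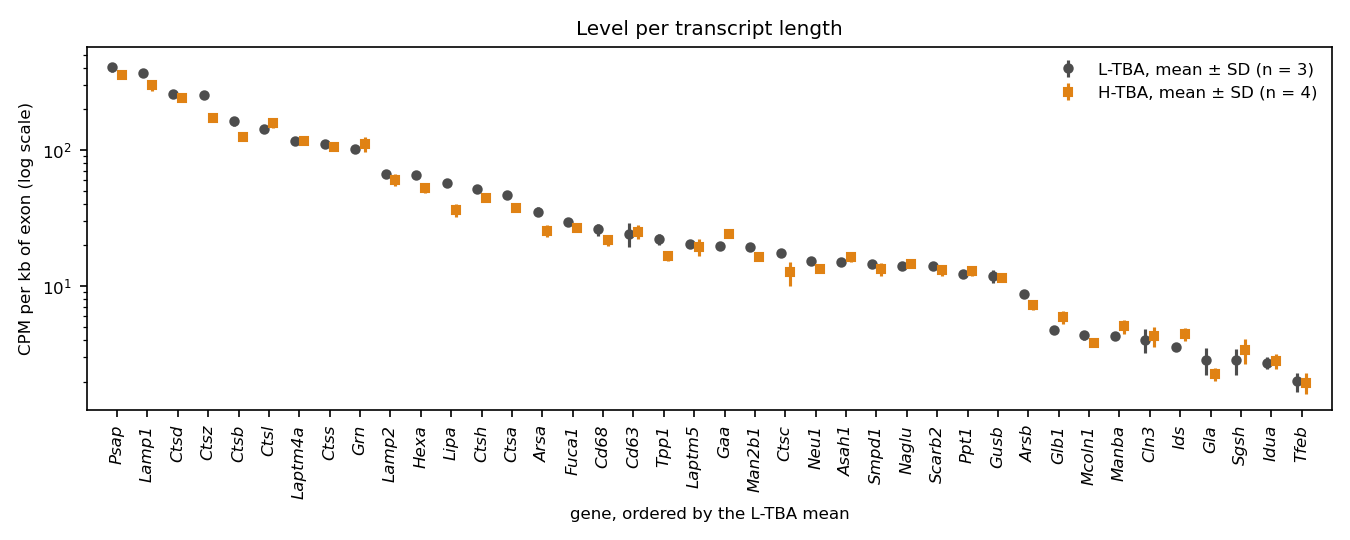
TMM-scaled CPM per kilobase of annotated exon (log axis) for the 40 genes, ordered by the L-TBA mean, with circles for L-TBA (mean ± SD, n = 3) and squares for H-TBA (mean ± SD, n = 4). Psap and Lamp1 stand at the top and Tfeb at the bottom, and Ctsz lies close to Ctsd in L-TBA and further below it in H-TBA.

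In H-TBA livers 9 of the 40 genes were lower and 1 was higher, while 30 did not pass. The genes that fell were Lipa, the proteases Ctsz, Ctsc, Tpp1, Ctsb and Ctsa, the sulfatases Arsa and Arsb and the glycosidase Hexa, and the gene that rose was the glycosidase Gaa. The 25% of members called is near the 23.9% of all genes called; the split was 22.5% lower and 2.5% higher, beside 10.7% and 13.1% of all genes. Changes were small, between 0.64-fold and 1.24-fold, and the median log2 fold change was -0.11, beside 0.00 over all genes. For 20 members the ranges of the groups were separate, which is 50% of members beside 33.5% of all genes. In H-TBA 16 of them were lower and 4 higher, which is 40% and 10% of members beside 16.3% and 17.2% of all genes. The counts moved with single libraries: with L-TBA replicate 1 left out 5 members were lower, and with L-TBA replicate 2 left out 4 were. Omitting H-TBA replicate 1 gave 4 higher members, and omitting L-TBA replicate 3 gave 0.

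Scaling mattered for these counts. With libraries scaled by their totals instead of by TMM (trimmed mean of M-values, which sets the bulk of genes to no change), the median over all genes moved from 0.00 to 0.16. Under that scaling 4 members rose and 2 fell, and higher genes stood at 78.9% of all calls against 55.1% with TMM. The median of the 40 members was then 0.04, which is -0.12 relative to all genes, against -0.11 with TMM. As a share of all counts, the members took 0.767% to 0.840% in H-TBA and 0.771% to 0.859% in L-TBA. Lipa and Ctsz were called lower, and Gaa higher, with both scalings. The log2 fold changes of 10 members, none of them called, turned from negative to positive: Ctsd, Ctss, Gusb, Fuca1, Smpd1, Lamp2, Scarb2, Laptm4a, Laptm5 and Tfeb. With totals the class medians were -0.16 for proteases, 0.10 for glycosidases, 0.15 for sulfatases, 0.03 for lipid hydrolases and 0.06 for membrane proteins. The directions given below are with TMM.

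**Figure D2:**
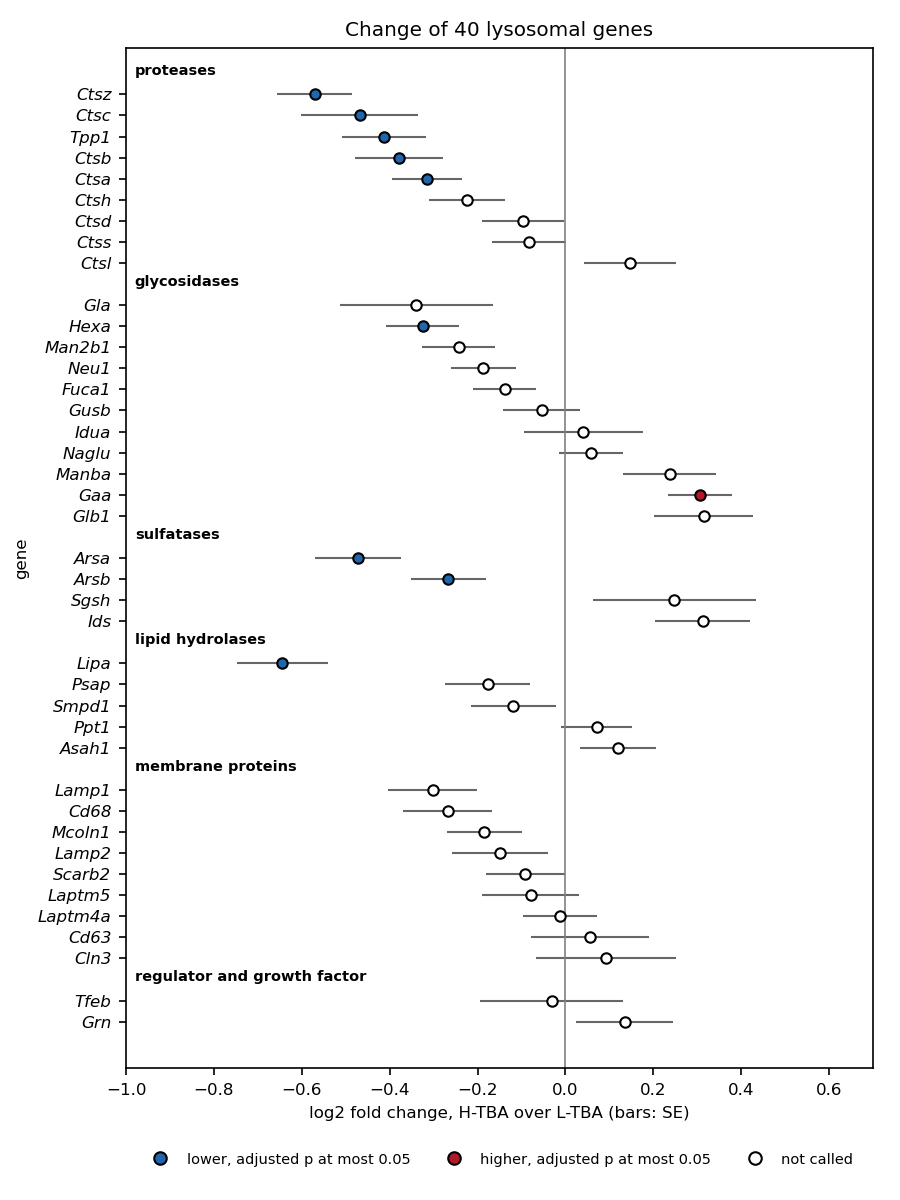
Log2 fold change (H-TBA over L-TBA, TMM scaling) of each gene by class, with bars for the SE, blue for lower, red for higher and white for not called. 5 of the 9 proteases lie below zero and are called, no membrane protein is called, and Gaa is the only member called higher.

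**Figure D3:**
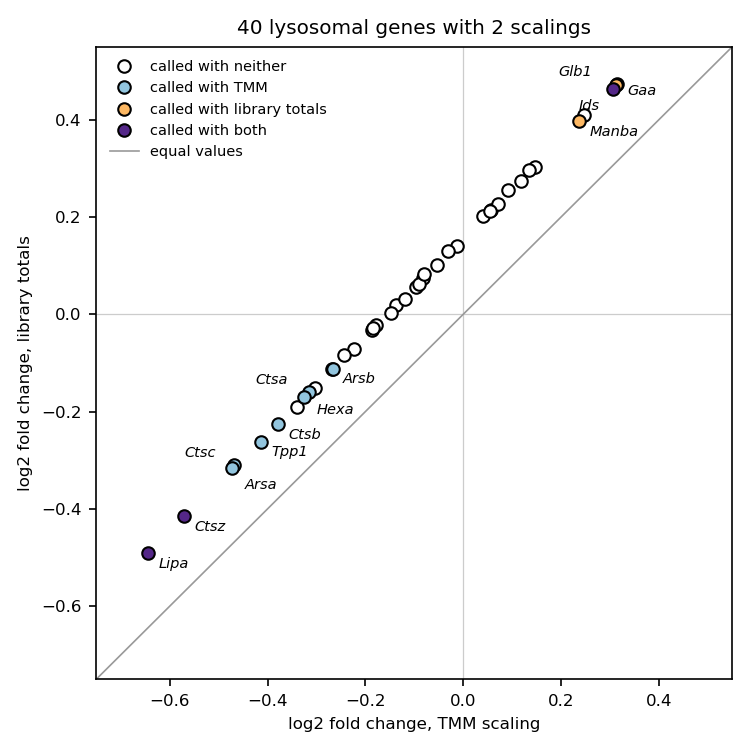
Log2 fold change of the 40 genes with TMM (horizontal axis) against library totals (vertical axis), colored by which scaling gave a call. All points lie above the line of equal values, and Lipa, Ctsz and Gaa are called with both.

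Proteases made up more of the falls than any other class: 5 of 9 fell, 0 rose, and the median log2 fold change was -0.31. Among the 4 sulfatases 2 fell, so by share that class was close. Counts for this and the other classes of members stand beside 10.7% of all genes called lower and 13.1% called higher. The summed protease level was 3530 to 3853 CPM in L-TBA and 3171 to 3367 in H-TBA, without overlap. The count of lower proteases was 3 when L-TBA replicate 1 was omitted and 2 when L-TBA replicate 2 was, and library totals left 1.

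Ctsz (ENSMUSG00000016256) encodes cathepsin Z, a cysteine carboxypeptidase prominent in macrophages. Its level was 352, 370 and 370 CPM in the L-TBA libraries and 262, 238, 244 and 237 in H-TBA. The groups were far apart relative to their spread, with H-TBA 1 the nearest to L-TBA. The log2 fold change was -0.57 ± 0.09 (SE), with an adjusted p of 0.000972 by edgeR, and all 16 alternatives called it lower (adjusted p up to 0.0275).

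Tpp1 encodes tripeptidyl peptidase 1, which trims tripeptides from protein ends. It stood at 119, 122 and 102 CPM in L-TBA and at 95, 79.9, 80.0 and 87.8 in H-TBA, so the groups did not overlap although L-TBA 3 came close to H-TBA 1. The log2 fold change was -0.41 ± 0.09 (edgeR adjusted p = 0.00921), and the only alternative to lose the call was library totals (adjusted p = 0.0653).

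Ctsb, for cathepsin B, a broad cysteine protease, went from 979, 1056 and 910 CPM in L-TBA to 800, 756, 693 and 773 in H-TBA. The lowest L-TBA library was above every H-TBA library. Its log2 fold change was -0.38 ± 0.10 (edgeR adjusted p = 0.0186). Omitting H-TBA replicate 2 ended the call (adjusted p = 0.0509), as did omitting L-TBA replicate 1 or 2 (0.0654 and 0.0824). So did library totals and a block on replicate number (0.115), and the 16 alternatives ranged from 0.000205 to 0.115.

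Ctsa encodes cathepsin A, a carboxypeptidase that also protects beta-galactosidase and sialidase in a shared complex. It stood at 223, 227 and 215 CPM in L-TBA and 184, 172, 171 and 185 in H-TBA, with little spread in either group (log2 fold change -0.31 ± 0.08, edgeR adjusted p = 0.0151). Omitting L-TBA replicate 1 or 2 ended that call (adjusted p = 0.0581 and 0.0597). So did library totals and a block on replicate number (0.0909), and the 16 alternatives ranged from 0.000378 to 0.158. Its partners in the complex, Neu1 for the sialidase and Glb1 for beta-galactosidase, did not pass: Neu1 was at -0.19 ± 0.07 (edgeR adjusted p = 0.091) and Glb1 at 0.31 ± 0.11 (edgeR adjusted p = 0.0653).

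Ctsc encodes dipeptidyl peptidase I, which activates serine proteases of leukocytes. In L-TBA it was at 94.3, 101 and 108 CPM and in H-TBA at 59.9, 94.4, 69.5 and 69.2. Here the groups touched, since H-TBA 2 matched the lowest L-TBA library, and H-TBA 1 was lowest of all. The log2 fold change was -0.47 ± 0.13 (edgeR adjusted p = 0.0258). Omitting H-TBA replicate 3 or 4 (adjusted p = 0.0619 and 0.0763) or L-TBA replicate 2 or 3 (0.0665 and 0.0856) ended the call. So did library totals and a block on replicate number (0.0624), and the 16 alternatives ranged from 0.00335 to 0.119.

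The remaining proteases did not pass. Ctsl, for cathepsin L, was the one protease with a positive log2 fold change, at 0.15 ± 0.10 (edgeR adjusted p = 0.342), from 924, 975 and 861 CPM in L-TBA to 926, 1113, 1051 and 985 in H-TBA. Ctsd, for cathepsin D, was at -0.10 ± 0.09 and Ctss, for the macrophage and antigen-presenting cell protease cathepsin S, at -0.08 ± 0.08, both with overlapping groups. Ctsh, for the aminopeptidase cathepsin H, was at -0.22 ± 0.09 with no overlap (edgeR adjusted p = 0.0835) and passed with DESeq2 (adjusted p = 0.0367).

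**Figure D4:**
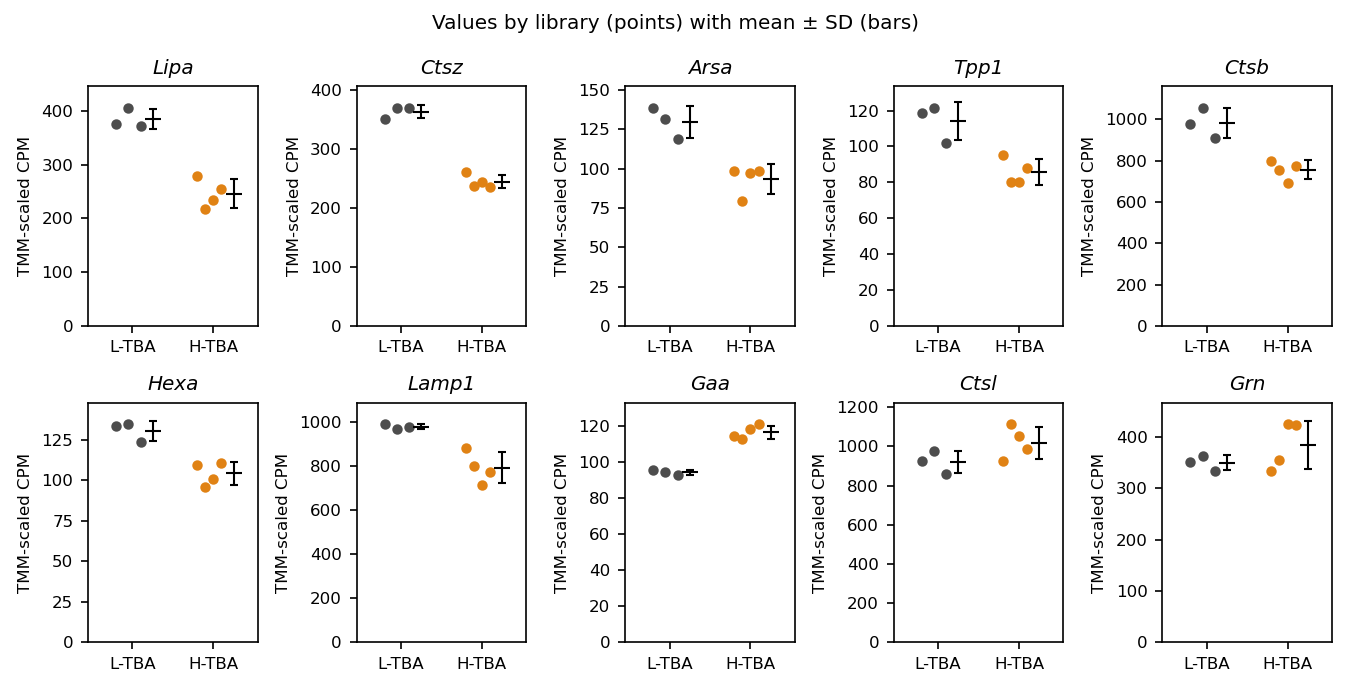
TMM-scaled CPM of 10 genes in each library (points), with bars for the mean ± SD, L-TBA (n = 3) in gray and H-TBA (n = 4) in orange, each axis starting at 0. Lipa, Ctsz, Arsa, Tpp1, Ctsb, Hexa and Lamp1 are lower in every H-TBA library, Gaa is higher in every one, and Ctsl and Grn overlap.

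Among the lipid hydrolases, Lipa alone passed, 1 lower of 5. Lipa (ENSMUSG00000024781) encodes lysosomal acid lipase, which frees cholesterol and fatty acids from cholesteryl esters and triglycerides. It was at 376, 405 and 372 CPM in L-TBA and at 279, 217, 234 and 254 in H-TBA. Every H-TBA library was below every L-TBA library, with H-TBA 1 nearest. The level fell to 0.64-fold, from 385 ± 18.2 to 246 ± 26.6 CPM (SD, n = 3 and 4), a log2 fold change of -0.64 ± 0.10 (edgeR adjusted p = 0.00139), and all 16 alternatives called it lower (adjusted p up to 0.0231).

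The other 4 members of this class, among them those for sphingolipid breakdown, did not pass. Arsa and Hexa, for enzymes that degrade sulfatide and GM2 ganglioside, were lower and are given with their classes. Smpd1, for acid sphingomyelinase, was at -0.12 ± 0.10 and Asah1, for acid ceramidase, at 0.12 ± 0.09. Psap, whose product is cut into the saposins that present sphingolipids to their enzymes, was lower in every H-TBA library, at 956, 953, 984 and 1010 CPM against 1167, 1124 and 1019, but H-TBA 4 and L-TBA 3 were nearly level (log2 fold change -0.18 ± 0.10, edgeR adjusted p = 0.209). Ppt1, a thioesterase that removes palmitate from proteins, was at 0.07 ± 0.08.

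Sulfatases, which remove sulfate groups from lipids and glycosaminoglycans, split: 2 of 4 fell and the other two had positive values without passing. Arsa (ENSMUSG00000022620), for the arylsulfatase that degrades sulfatide, stood at 139, 131 and 119 CPM in L-TBA and at 98.5, 79.3, 97.3 and 98.6 in H-TBA. H-TBA 2 was apart from the other H-TBA libraries on the low side, and all H-TBA values were below L-TBA. Its log2 fold change was -0.47 ± 0.10 (edgeR adjusted p = 0.00566), lost only with library totals (adjusted p = 0.0576).

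Arsb, for the enzyme that desulfates dermatan and chondroitin sulfate, was at 54.7, 53.3 and 51.7 CPM in L-TBA and 46.1, 40.7, 41.3 and 48.8 in H-TBA. The groups did not overlap, and the change was small, -0.27 ± 0.09 (edgeR adjusted p = 0.0421). Omitting H-TBA replicate 2 or 3 or any 1 L-TBA library ended the call (adjusted p from 0.0777 to 0.128). So did DESeq2, no filter, library totals and a block on replicate number (edgeR adjusted p = 0.0653 with the block). The 16 alternatives ranged from 0.0255 to 0.401. Ids, for the iduronate sulfatase of heparan and dermatan sulfate, had H-TBA libraries at 20.9, 21.5, 22.3 and 26.2 CPM above L-TBA at 19.2, 16.8 and 19.0, and did not pass (0.31 ± 0.11, edgeR adjusted p = 0.057); it passed when H-TBA replicate 1 was omitted (adjusted p = 0.0348), under library totals and under the GC offset. Sgsh, for heparan sulfamidase, was at 0.25 ± 0.19 with overlapping groups.

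Glycosidases had 1 higher and 1 lower of 11, with a median of -0.05. Gaa (ENSMUSG00000025579) encodes acid alpha-glucosidase, which degrades glycogen within lysosomes. Its level was 95.3, 94.2 and 93.0 CPM in L-TBA and 114, 113, 118 and 121 in H-TBA. Spread within each group was small, and every H-TBA library was above every L-TBA library. The log2 fold change was 0.31 ± 0.07 (edgeR adjusted p = 0.0115). Omitting L-TBA replicate 3 ended the call (adjusted p = 0.0506), as did an offset for GC content (log2 fold change 0.15, adjusted p = 0.158). So did a block on replicate number (0.101), and the 16 alternatives ranged from 0.00204 to 0.158.

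Hexa encodes the alpha subunit of beta-hexosaminidase A, the enzyme that removes the terminal sugar of GM2 ganglioside. It went from 134, 135 and 123 CPM in L-TBA to 110, 95.7, 101 and 110 in H-TBA, without overlap (log2 fold change -0.32 ± 0.08, edgeR adjusted p = 0.0161). Omitting L-TBA replicate 1 or 2 ended the call (adjusted p = 0.0632 and 0.0625). So did library totals and a block on replicate number (0.0693), and the 16 alternatives ranged from 0.00282 to 0.180.

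The other glycosidases did not pass. Glb1 was at 15.2, 19.9, 17.7 and 18.5 CPM in H-TBA and 13.99, 14.4 and 14.7 in L-TBA, with no overlap; it passed when H-TBA replicate 1 was omitted (adjusted p = 0.0175) and under library totals (0.0236). Manba, for beta-mannosidase, was at 0.24 ± 0.11 and passed under the same 2 settings (adjusted p = 0.0153 and 0.0482). Man2b1, for alpha-mannosidase, was at -0.24 ± 0.08 with no overlap (edgeR adjusted p = 0.0543), and passed with DESeq2, limma-voom, DESeq2 size factors and the length offset. Fuca1, for alpha-fucosidase, was at -0.14 ± 0.07, Gusb, for beta-glucuronidase, at -0.05 ± 0.09, Naglu and Idua, which degrade heparan sulfate, at 0.06 ± 0.07 and 0.04 ± 0.14, and Gla, for alpha-galactosidase, at -0.34 ± 0.17 with 6.18 to 11.8 CPM over all libraries.

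Of the 9 membrane proteins 0 passed by edgeR, and the count at an unadjusted p under 0.05 was 2, for Lamp1 and Cd68. DESeq2 called Lamp1 alone and limma-voom likewise. Lamp1 (ENSMUSG00000031447), for an abundant glycoprotein of the lysosomal membrane, was at 990, 969 and 977 CPM in L-TBA and 883, 801, 715 and 775 in H-TBA. L-TBA values were nearly equal and all above H-TBA, whose libraries spread more. The log2 fold change was -0.30 ± 0.10 with an edgeR adjusted p of 0.0502, just outside the threshold, and 0.0129 without H-TBA replicate 1; DESeq2 gave 0.00486 and the range over alternatives was 0.00486 to 0.225.

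Lamp2, for the related LAMP protein needed for fusion with autophagosomes, was at -0.15 ± 0.11, and Scarb2, for the sorting receptor of glucocerebrosidase, at -0.09 ± 0.09, both with overlap. The calcium channel gene Mcoln1 and the macrophage glycoprotein gene Cd68 were below L-TBA in every H-TBA library without passing, at -0.18 ± 0.09 and -0.27 ± 0.10 (edgeR adjusted p = 0.142 and 0.077). Cd68 stood at 36.5, 32.0 and 29.7 CPM in L-TBA and 28.4, 23.8, 27.6 and 29.0 in H-TBA. Laptm4a and Laptm5, small membrane proteins of which the latter is specific to blood cells, were at -0.01 ± 0.08 and -0.08 ± 0.11, the tetraspanin gene Cd63 at 0.06 ± 0.13, and Cln3, mutated in a childhood neuronal lipofuscinosis, at 0.09 ± 0.16. For Laptm4a the 95% interval of the log2 fold change ran from -0.20 to 0.17.

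Tfeb itself was at 13.2, 9.69 and 11.1 CPM in L-TBA and 8.97, 11.6, 13.4 and 10.4 in H-TBA, with full overlap (-0.03 ± 0.16, edgeR adjusted p = 0.915; 95% interval -0.39 to 0.33). Its relatives Tfe3 and Mitf were at -0.09 ± 0.08 and -0.03 ± 0.20 and did not pass. Grn, for progranulin, a secreted factor processed in lysosomes, was at 333, 355, 425 and 424 CPM in H-TBA and 353, 364 and 334 in L-TBA: H-TBA 3 and 4 were above every L-TBA library, H-TBA 2 was within their range and H-TBA 1 was just below the lowest (0.13 ± 0.11). Among the 12 genes with an E-box 1 was higher and 2 were lower, with a median log2 fold change of -0.02; among the 25 with a window and no E-box 0 were higher and 6 lower, with a median of -0.12. That difference was not tested.

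**Figure D5:**
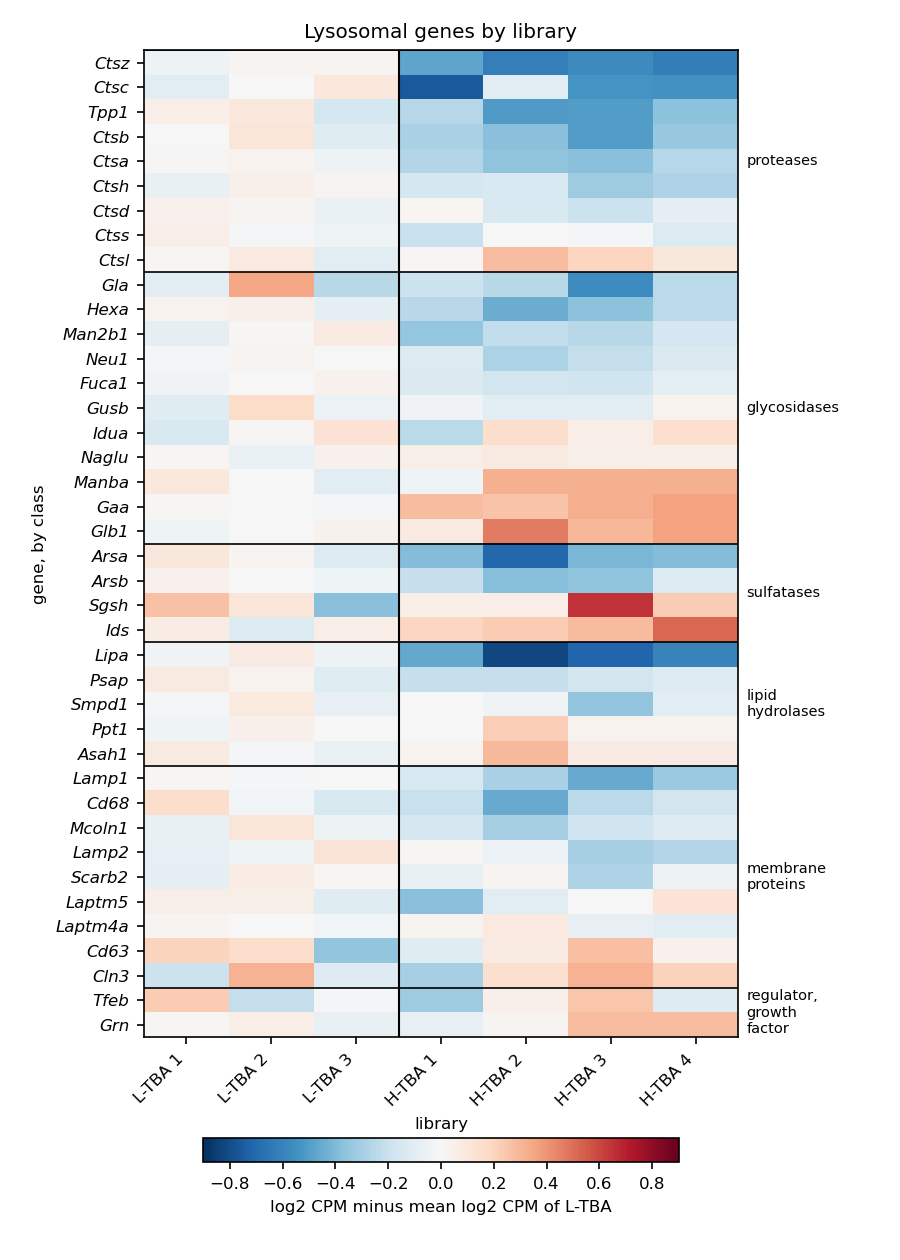
Log2 CPM of each gene in each library, minus the mean of the L-TBA libraries, by class (blue lower, red higher). Ctsz, Lipa and Arsa are blue in all 4 H-TBA libraries and Gaa is red in all 4, while Glb1 and Manba are pale in H-TBA 1 and Sgsh is highest in H-TBA 3.

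Other lysosomal genes, in a list of mainly hydrolases, gave both directions. The list also holds genes that are not for hydrolases, such as Ifi30 and Npc2. Of 28 tested, 5 rose and 10 fell, with a median of -0.21. Counts for this and the later lists stand beside 13.1% of all genes called higher and 10.7% called lower. No list was tested as a set. Ifi30, a thiol reductase of antigen-presenting cells, fell by 0.61 ± 0.09 on the log2 scale (edgeR adjusted p = 0.000896) and Acp5, the tartrate-resistant acid phosphatase of macrophages, fell by 0.45 ± 0.09 (0.00472). Ctsk, for the collagen-degrading cathepsin K, rose from 5.07 ± 1.24 to 11.4 ± 1.16 CPM (log2 fold change 1.17 ± 0.18, edgeR adjusted p = 0.00108). Npc2, which hands cholesterol to the exporter NPC1, was at 0.01 ± 0.08 and Npc1 at 0.02 ± 0.10, and neither passed. In place of 10, 3 to 6 fell when H-TBA replicate 2, 3 or 4 or any 1 L-TBA library was omitted, and 2 with library totals, where 8 rose; 3 rose without L-TBA replicate 3.

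The list of other lysosomal membrane proteins, which also holds the tetraspanin genes Cd81 and Cd9, had 1 higher and 4 lower of 24. The 1 that rose was Cd9, at 0.61 ± 0.14 (edgeR adjusted p = 0.00834). The sialic acid exporter gene Slc17a5, the amino acid carrier gene Slc36a1 and the tetraspanin gene Cd81 fell by 0.51 ± 0.11, 0.44 ± 0.08 and 0.44 ± 0.09 on the log2 scale (edgeR adjusted p = 0.00549, 0.00312 and 0.00396). The Cd81 call was lost with a block on replicate number (edgeR adjusted p = 0.0541). Subunits of the V-ATPase, the pump that acidifies the lysosome, moved little: 0 of 17 rose and 1 fell, and all 17 log2 fold changes lay between -0.26 and -0.01; with library totals 12 of the 17 were above zero and 0 passed. The subunit that fell, Atp6v0d1, at -0.26 ± 0.08 (edgeR adjusted p = 0.0455), lost its call without any 1 library except H-TBA replicate 1. It also lost its call with no filter, with a block on replicate number and with the length and GC offsets. Atp6v1a and Atp6v1h, at -0.19 ± 0.08 and -0.18 ± 0.08, did not pass, though Atp6v1a did without H-TBA replicate 1.

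In the list for sorting by mannose 6-phosphate and enzyme activation 1 of 10 rose and 2 fell, of which 1 fell with library totals. Sort1, for the sorting receptor sortilin, rose by 0.52 ± 0.12, and Gga2, a clathrin adaptor for mannose 6-phosphate receptors, fell by 0.53 ± 0.10 (edgeR adjusted p = 0.00927 and 0.00423). The Sort1 call was lost with a block on replicate number (edgeR adjusted p = 0.0806). Sumf1, which activates sulfatases, fell by 0.28 ± 0.08 (edgeR adjusted p = 0.03). That call ended when H-TBA replicate 2, 3 or 4, or else L-TBA replicate 1 or 3 was omitted. It also ended with library totals, with DESeq2 (adjusted p = 0.0507) and with a block on replicate number (edgeR adjusted p = 0.146).

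A list on the control of TFEB held its relatives, the nutrient-sensing machinery of the lysosome surface (Rag GTPases, Ragulator, folliculin and mTOR) and regulators elsewhere in the cell such as calcineurin. Of its 20 tested genes 1 rose and 4 fell; with library totals 3 rose and 1 fell, and without L-TBA replicate 3, 2 rose. Rragd, for a Rag GTPase that recruits the kinase mTOR, went from 30.9 ± 8.26 to 70.6 ± 9.15 CPM (log2 fold change 1.19 ± 0.16, edgeR adjusted p = 0.00064). Fnip2, a partner of folliculin in switching the Rag GTPases, fell by 0.82 ± 0.13 (0.00124). Mtor fell by 0.34 ± 0.07 (0.00585), a call lost with library totals and with a block on replicate number (0.0519). Rragd and Fnip2 were called in all 16 alternatives.

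Of 21 autophagy genes 1 rose and 4 fell, beside 13.1% and 10.7% of all genes. With library totals 3 rose and 2 fell, beside 20.4% and 5.46% of all genes. Atg7, an enzyme of the conjugation step, fell from 57.0 ± 5.72 to 35.6 ± 1.58 CPM (log2 fold change -0.68 ± 0.09, edgeR adjusted p = 0.000497) and Gabarapl1, a protein of the autophagosome membrane, fell by 0.53 ± 0.12 (0.0073). Tecpr1, for a tether between autophagosome and lysosome, rose by 0.40 ± 0.11 (0.0181), a call lost without L-TBA replicate 2 or 3. It was also lost with a block on replicate number and with the GC offset (edgeR adjusted p = 0.0618 and 0.0549). Without any 1 library except H-TBA replicate 1, 2 genes of this list fell.

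Markers of some, not all, of the cells that could contribute lysosomal transcripts differed between the groups. The 24 Kupffer cell and macrophage markers summed to 1561 to 1913 CPM in L-TBA and 1250 to 1410 in H-TBA, and none was at 0 in all libraries. Of 23 tested, 6 fell, 1 rose and 16 did not pass (median -0.32), beside 10.7% lower and 13.1% higher of all genes. The general macrophage markers Csf1r and Lyz2 were among those that did not pass, at -0.12 ± 0.13 and -0.11 ± 0.13 (edgeR adjusted p = 0.56 and 0.598). The Kupffer cell genes Clec4f and Cd5l fell by 1.54 ± 0.28 and 1.36 ± 0.18 and the macrophage gene Adgre1 by 0.60 ± 0.16 (edgeR adjusted p = 0.00261, 0.000604 and 0.0171), Cx3cr1, a receptor of monocyte-derived macrophages, rose by 0.72 ± 0.14, and Trem2 and Gpnmb, marks of lipid-associated macrophages, were at 0.16 ± 0.16 and -0.31 ± 0.21 without passing. L-TBA 3 stood apart in resident macrophage markers: Clec4f was at 52.3, 52.8 and 117 CPM in the L-TBA libraries, Marco at 1.12, 0.897 and 20.2, Timd4 at 1.30, 0.538 and 8.61 and Vsig4 at 22.5, 10.6 and 53.7. Without L-TBA 3 the Clec4f and Cd5l log2 fold changes were -1.05 and -1.20 (edgeR adjusted p = 0.00362 and 0.00239), 5 markers fell, and the summed level of the remaining L-TBA libraries, 1561 and 1630 CPM, was still above H-TBA. The Adgre1 call was lost without L-TBA replicate 3 and with library totals, Gpnmb passed without H-TBA replicate 1, 2 markers rose without H-TBA replicate 1, and 3 fell with library totals. Their part in the falls of Ctsz, Lipa, Ctsb, Ctsc and the other members was not tested.

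The other cell types are given for the same reason. Bile duct markers rose in all 10 of 10 cases, from a sum of 475 to 752 CPM to 1015 to 1969, and the 3 with the smallest adjusted p were Krt19, Epcam and Ehf at 3.03, 2.27 and 2.29 on the log2 scale. Of 17 tested markers of other leukocytes, with a sum of 90.4 to 183 CPM in L-TBA and 73.0 to 94.4 in H-TBA and Ly6g at 0 in every library, 1 rose and 1 fell. The L-TBA sums were 90.4, 92.4 and 183 CPM, so the groups overlapped and L-TBA 3 stood apart. The B-lineage genes Jchain and Ms4a1 were at 60.9 and 9.62 CPM in L-TBA 3 against at most 11.9 and 1.63 in the other libraries. The genes that passed were Cd209a at 1.72 ± 0.57 and S100a8 at -1.11 ± 0.32; S100a9 at -0.83 ± 0.31 did not pass, though it did without H-TBA replicate 2. Both calls were lost without L-TBA replicate 2 and with DESeq2. Cd209a also lost its call without L-TBA replicate 1 and with limma-voom, and was below the count filter without H-TBA replicate 2, 3 or 4. S100a8 also lost its call when H-TBA replicate 3 or 4, or else L-TBA replicate 3 was omitted, and with a block on replicate number. Of 12 stellate cell and fibroblast markers (613 to 1081 and 940.4 to 1066 CPM summed) 5 rose and 1 fell, with the smallest adjusted p for Pdgfra, Lum and Reln at 1.40, 1.06 and -0.95, and 3 rose without L-TBA replicate 2. Of 12 endothelial markers (269.6 to 328 and 240.3 to 284 CPM) 2 rose and 4 fell, with the smallest adjusted p for Stab2, Cd34 and Lyve1 at -0.80, 1.82 and -1.29, and 4 rose without H-TBA replicate 1. Of 11 hepatocyte markers (67590 to 76271 and 62454 to 71020 CPM) 2 rose, Ass1 and Cps1 at 1.08 and 1.13, and 2 fell, Ttr at -0.45 among them, a call lost without L-TBA replicate 1; the lower count was 4 without H-TBA replicate 1, 0 without L-TBA replicate 1 and 1 without H-TBA replicate 2, 3 or 4, or else L-TBA replicate 2.

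Some members share exon sequence with a neighbour in the GRCm38 gene models, and since the strand setting of the counting is not stated, reads of such pairs may have been mixed. Ctsa overlaps Pltp and Neurl2 on the opposite strand over 10.5% and 6.87% of its exon length, Ctsb overlaps Fdft1 (12.8%), Hexa overlaps Tmem202 (12.8%) and Arsa overlaps the antisense RNA C230037L18Rik (18.8%). Arsb overlaps the opposite-strand RNAs Gm26527 (32.3%) and Gm47210 (7.67%), for which no level is given here. Among members that did not pass, the overlaps over 20% were those of Ctsd with Gm49369 (34.4%, same strand), Ctsl with Gm47123 (26.8%) and Sgsh with Card14 (21.6%). Pltp, for a phospholipid transfer protein, fell from 94.5 ± 11.6 to 55.6 ± 6.55 CPM (log2 fold change -0.77 ± 0.11, edgeR adjusted p = 0.000772), so the fall of Ctsa is uncertain in that respect. The partners of Arsa and Hexa were at most 1.88 ± 0.37 CPM on average in either group, and Fdft1 did not pass (-0.17 ± 0.12).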

How the data were processed

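The authors deposited raw counts per gene for 7 mouse liver RNA-seq libraries, used here as whole numbers. CASAVA, TopHat2 2.0.11, DESeq2 1.18.1 and the build mm9 are named per the submitters' processing notes, without their roles; the counter and its strand setting are not stated there. Symbols were matched for 32897 of 37620 identifiers from a GRCm38 annotation, another build than mm9, which also gave exon lengths and overlaps. The members and gene lists were chosen with earlier results of these data known.

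Groups came from the sample labels. Genes passed edgeR's filterByExpr (at least 10 counts in enough libraries and 15 in all). After TMM scaling the groups were contrasted (H-TBA over L-TBA) with edgeR's two-sided quasi-likelihood test (edgeR 4.0.16, limma 3.58.1, R 4.3.3) with Benjamini-Hochberg adjustment over 15249 genes and a threshold of 0.05. The script was tested on simulated counts. Named were all 40 members, up to 3 genes per other list with the smallest adjusted p, and Tfe3, Mitf, Npc1, Npc2, Trem2, Gpnmb, Adgre1 and Clec4f. Overlap partners and further cell markers were added later. 1 result is not reported here. Levels per length are TMM-scaled CPM per kilobase of union exon.

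There were 16 alternatives: DESeq2 1.42.0, limma-voom, DESeq2 size factors, library totals, no filter, a stricter filter (1 CPM in 3 libraries), a replicate block, each library left out, and offsets for gene length and GC content, the last pair chosen after seeing the data. No libraries were near-identical. Figures were drawn with matplotlib 3.10.9.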

Additional observations from a re-analysis of the deposited data

Results flagged for a closer look

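Among 87 genes checked in the 4 H-TBA libraries, 9 had 1 library far from the other three, where chance alone gives about 1 in 20. Of the 9, 5 were members. Arsa, for arylsulfatase A, was at 79.3 CPM in H-TBA 2 against 97.3 to 98.6 in the others, and Manba, for beta-mannosidase, was at 29.1 CPM in H-TBA 1 against 37.3 to 37.5. Acid ceramidase (Asah1) and the thioesterase Ppt1 were both high in H-TBA 2, at 62.8 CPM against 52.3 to 54.0 and at 52.4 CPM against 44.8 to 46.0. Gla was low in H-TBA 3, at 6.18 CPM against 7.72 to 8.03. The other four genes were Clec4f at 16.8 CPM in H-TBA 3 (28.2 to 28.7 elsewhere), Atp6v1a at 75.2 CPM in H-TBA 1 (67.0 to 67.8), Sort1 at 34.1 CPM in H-TBA 1 (43.9 to 45.9) and Pltp at 65.4 CPM in H-TBA 4 (52.1 to 52.5). The 3 L-TBA libraries were not put through this check.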

How the results depend on the processing

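Over all genes, 2003 were higher and 1635 lower; library totals gave 3117 and 832. Leaving out 1 library gave 1470 to 2429 higher and 1035 to 2123 lower, lowest without L-TBA replicate 2 and L-TBA replicate 1, respectively. For the 40 members, 1 higher and 9 lower became 4 and 2 with library totals, and leaving out 1 library gave 0 to 4 higher and 4 to 10 lower. With GC content as an offset 1 member was higher, Ids in place of Gaa.

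With the replicate number as a block, over replicates 1 to 3 of both groups, 1124 genes were higher and 749 lower, with 0 members higher and 4 lower. Deviations of same-numbered libraries correlated at -0.10, -0.06 and -0.06, and no library correlated best with its own number. With so few libraries this check cannot exclude a batch shared by libraries of the same number, and the labels state no pairing.

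Signs changed as follows, for genes that did not pass. Library totals gave log2 fold changes of 0.0564 for Ctsd, 0.0752 for Ctss, 0.101 for Gusb, 0.0188 for Fuca1, 0.032 for Smpd1, 0.00376 for Lamp2, 0.0625 for Scarb2, 0.141 for Laptm4a, 0.0826 for Laptm5, 0.131 for Tfeb, 0.0676 for Tfe3 and 0.125 for Mitf. The GC offset gave -0.112 for Naglu and 0.0176 for Laptm4a, the length offset 0.0233 for Laptm4a, -0.0285 for Npc1 and -0.023 for Npc2, the block -0.00338 for Idua and 0.0156 for Laptm4a, and DESeq2 -0.000627 for Npc2. Leaving out 1 library moved Cd63 between -0.104 and 0.15, Cln3 between -0.00907 and 0.267, Gusb between -0.113 and 0.0322, Idua between -0.0299 and 0.125, Laptm4a between -0.0476 and 0.0169, Laptm5 between -0.151 and 0.00819, Tfeb between -0.137 and 0.0927, Mitf between -0.237 and 0.092, Npc1 between -0.0363 and 0.0913 and Npc2 between -0.0168 and 0.0283. The cause was not tested. Depth limits Gla most among the members, with the lowest count of all 40, 76.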
